A study of Mus musculus with 3 samples.

Results

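Broad H3K4me3 domains were the peaks of 4500 bp or more (end minus start) in the deposited H3K4me3 peak list, and 824 of the 16735 H3K4me3 peaks (4.92%) met this width. The domains were chosen by their H3K4me3 peak width, so their width and H3K4me3 score are description and not findings. The cells are described as suprabasal keratinocytes, which have left the basal layer and are differentiating. The assay was ChIP-seq, which sequences DNA pulled down with an antibody. Libraries were made with an antibody against DLX3, an antibody against H3K4me3 and nonspecific IgG, 1 library each. Every library came from wild-type BALB/c mice that carried no transgene or treatment in the labels. Age is labelled adult, whereas the series text speaks of newborn epidermis fractionated on Percoll, and nothing used here settles which holds. The IgG library was not analysed here. With 1 library per antibody there is no replicate spread and no test, and the intervals given are 95% intervals that cover counting error only.

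H3K4me3 is trimethylated lysine 4 of histone H3. The SET1 and KMT2 enzymes deposit it around the start sites of active genes, most often as a short peak, and domains that run far past the start are known in many cell types for lying over genes of cell identity. DLX3, a homeodomain protein of the Distal-less family, acts in epidermal differentiation and in hair and tooth formation. Homeodomains bind short AT-rich DNA with a TAAT core.

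Windows of 250 bases before a gene start are shown for 6 genes of broad domains, because they set a DLX3 peak on the promoter beside the presence or absence of the homeodomain core. All 6 come from RefSeq on GRCm38.p6, the assembly that mm10 names, and run 5′ to 3′ on the gene's strand. Capitals mark the homeodomain core TAATT on either strand, in its longer form TAATTA where present, and the AP-1 site TGANTCA, which Fos and Jun dimers bind. Of the Krt14 window (chr11:100206031-100206280, minus strand) the 194 bases nearest the start lay under a DLX3 peak, and its core, 229 bases before the start, lay just outside that peak. The Sbsn window (chr7:30751221-30751470, plus strand) lay under a DLX3 peak and held a core 80 bases before the start. It also held an AP-1 site 119 bases before the start. The window of the upstream Efna1 start (chr3:89280952-89281201, minus strand) lay under a DLX3 peak and held TAATTA 175 bases before the start. The Fos window (chr12:85473640-85473889, plus strand) lay under a DLX3 peak of score 750.77 and held neither motif. The window of the upstream Tfap2a start (chr13:40734921-40735170, minus strand) held a core 208 bases and TAATTA 32 bases before the start, and no DLX3 peak lay on it. The window of the upstream Bcl6 start (chr16:23988853-23989102, minus strand) held cores 184 and 124 bases before the start in a domain with no DLX3 peak at all.
Krt14: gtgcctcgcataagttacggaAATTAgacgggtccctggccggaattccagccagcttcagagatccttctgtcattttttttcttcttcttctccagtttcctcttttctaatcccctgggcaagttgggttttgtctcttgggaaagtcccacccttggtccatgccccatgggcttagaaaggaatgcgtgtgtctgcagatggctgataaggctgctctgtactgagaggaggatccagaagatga
Sbsn: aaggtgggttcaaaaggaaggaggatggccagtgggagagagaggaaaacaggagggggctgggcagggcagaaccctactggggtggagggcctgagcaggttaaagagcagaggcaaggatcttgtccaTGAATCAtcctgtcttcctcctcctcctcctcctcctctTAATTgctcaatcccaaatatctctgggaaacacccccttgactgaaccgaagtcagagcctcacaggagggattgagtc
Efna1: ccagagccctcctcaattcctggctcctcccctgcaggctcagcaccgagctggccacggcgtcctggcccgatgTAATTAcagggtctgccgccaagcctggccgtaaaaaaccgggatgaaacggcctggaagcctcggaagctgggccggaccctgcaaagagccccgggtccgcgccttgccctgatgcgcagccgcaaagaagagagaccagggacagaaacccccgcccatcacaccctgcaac
Fos: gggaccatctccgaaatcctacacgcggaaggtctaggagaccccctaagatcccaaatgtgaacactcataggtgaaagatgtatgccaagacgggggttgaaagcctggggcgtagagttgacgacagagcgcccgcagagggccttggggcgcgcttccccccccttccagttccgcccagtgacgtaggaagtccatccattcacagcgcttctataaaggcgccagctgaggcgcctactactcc
Tfap2a: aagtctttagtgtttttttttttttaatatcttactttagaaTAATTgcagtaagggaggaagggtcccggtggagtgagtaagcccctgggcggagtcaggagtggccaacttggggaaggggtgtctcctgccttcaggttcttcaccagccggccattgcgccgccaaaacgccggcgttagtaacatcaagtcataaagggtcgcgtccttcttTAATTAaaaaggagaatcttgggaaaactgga
Bcl6: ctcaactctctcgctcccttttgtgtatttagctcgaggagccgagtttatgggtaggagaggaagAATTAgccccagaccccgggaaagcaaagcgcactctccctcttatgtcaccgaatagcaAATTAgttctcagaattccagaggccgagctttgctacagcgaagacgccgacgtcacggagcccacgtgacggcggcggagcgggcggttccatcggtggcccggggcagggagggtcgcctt
A match is a string of letters and not a shown binding site, and these windows were picked after their values were seen.

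Mature microRNAs lay in 18 of the domains, and 4 of them are shown because their domains held no protein-coding start, so that the microRNA or its host transcript was the annotated gene there. Capitals mark the seed, bases 2 to 8, which pairs with target RNAs. All 36 mature sequences in the domains had different seeds. miR-203 and miR-205 are microRNAs of stratified epithelia, and miR-203 is known to restrain p63 in differentiating epidermis. let-7i belongs to a family that restrains growth-promoting genes, and miR-125b is found in stem cells of the skin.
miR-203-3p: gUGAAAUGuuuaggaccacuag
miR-205-5p: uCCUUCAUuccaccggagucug
let-7i-5p: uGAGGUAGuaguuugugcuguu
miR-125b-5p: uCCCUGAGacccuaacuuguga
The sequences are from RefSeq on GRCm38.p6 and lie at chr12:112130927-112130948 (plus strand), chr1:193507503-193507524 (minus strand), chr10:122985698-122985719 (minus strand) and chr9:41581940-41581961 (plus strand), in the order shown.

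The 824 domains covered 4.84 Mb, against 33.9 Mb for the 15911 narrower H3K4me3 peaks, and so held 12.5% of the H3K4me3 length. Their median width was 5310 bp (interquartile range 4813 to 6325), against 2023 bp (1476 to 2672) in narrower peaks. The deposited score, in the form that MACS 1.4 gives as 10 times the negative log10 of a p-value, stood at its usual ceiling of 3100 in 335 domains (40.7%) and in 431 narrower peaks (2.71%). The domains just above the threshold were those of Dyrk2 (4501 bp), Rreb1 (4504 bp) and Wnt6 (4506 bp), none of which held a DLX3 peak. Just below it stood Tmem9b (4498 bp, 1 DLX3 peak), Igf2bp2 (4497 bp, none) and Bcl7a (4495 bp, 1 DLX3 peak). Read depths are unknown, since the lists hold no counts. Of the marker genes of basal keratinocytes, 6 of 7 had a start in an H3K4me3 peak, as did 8 of 11 of suprabasal keratinocytes. The same held for 5 of 7 fibroblast, 2 of 7 melanocyte, 0 of 7 immune, 1 of 5 endothelial and 2 of 4 neuronal markers. Krt10, a keratin of suprabasal cells, and Flg, the filaggrin gene, had no start in an H3K4me3 peak, and Krt1, the partner of Krt10, had a peak of 1677 bp with no DLX3 peak. The keratins of the basal layer lay in broad domains, Krt5 in one of 5064 bp and Krt14 in one of 5452 bp, each with 1 DLX3 peak. These marks thus did not set the cells apart as suprabasal rather than basal, and the purity of the cells was not tested.

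A protein-coding start lay in 746 domains (90.5%, 95% Wilson interval 88.3 to 92.3) and in 70.7% of narrower peaks, against 71.7% of all H3K4me3 peaks. Among narrower peaks the share was 18.3% under 1000 bp, 59.1% at 1000 to 2000 bp and 86.0% at 2000 to 3000 bp. At 3000 to 4500 bp it was 91.1%, so broad domains did not differ in this from peaks just below the threshold. In all, 852 protein-coding genes had a start in a broad domain. That was 3.89% of the 21900 protein-coding genes and 6.63% of the 12847 whose start lay in any H3K4me3 peak, and the lists below are read against these shares. Single-gene domains were the rule, with 644 of 824, while 94 domains held 2 coding genes and 8 held more. Of the 852 genes, 657 (77.1%) shared their domain with a DLX3 peak. The lists were chosen with earlier results of these data known, a gene can stand in several, and 517 genes stood in none.

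Of the 4 widest domains, 3 lay over epidermal transcription factor genes, Tfap2a, Gata3 and Irx2. Of 63 keratinocyte transcription factor genes, 40 had a start in a broad domain, and 31 of these shared it with DLX3. The count was 23 of 63 when starts of the promoter table alone were used, so that genes missing from that table had no start. Tfap2a, which encodes the AP-2α factor of surface ectoderm, had the widest domain of the list at 18614 bp (chr13:40721832-40740445), with 5 DLX3 peaks. Gata3, needed for hair and barrier formation, followed with 17243 bp and 2 DLX3 peaks, and the Iroquois homeobox gene Irx2 had 15255 bp and 1 DLX3 peak. Ovol1, a zinc finger gene that takes keratinocytes out of the cell cycle, had 10145 bp and 4 DLX3 peaks. Zfp750, a factor of terminal differentiation, had 7438 bp and 3 DLX3 peaks, and Grhl3, a factor of barrier formation, had 6971 bp and 2. Klf4, also needed for the barrier, had 6881 bp and 1 DLX3 peak. Dlx3 itself lay in a domain of 8290 bp with 1 DLX3 peak, of score 185.43, whose centre was 1800 bp from the nearest end of the gene span. Bcl6, a transcriptional repressor, had the widest domain of this list without DLX3, at 11167 bp, and Sox9, Maf, Irx1, Irx3, Pou2f3, Rxra, Gata6 and Bhlhe41 also lay in domains that DLX3 peaks did not reach. Irx5 had 2 domains 126 bp apart, of which 1 held a DLX3 peak.

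The start of Trp63, the master regulator of stratified epithelia, lay in no H3K4me3 peak in the RefSeq tables used here. A domain of 6027 bp inside its span (chr16:25801153-25807179) held 1 DLX3 peak of score 109.39. The table gives 1 span per gene and no alternative starts of this gene, so whether an internal start lies there was not tested.

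Factor families were counted by name, and some of their members are in the keratinocyte list too. Of 134 homeobox genes outside the Hox clusters, 21 lay in broad domains, 15 of them with DLX3, and 12 of the 21 are keratinocyte factors of the list above. Dlx1 and Dlx2 stood in neighbouring domains 8806 bp apart with 2 and 1 DLX3 peaks. Hox genes counted 9 of 39, of which 4 shared a domain with DLX3. Hoxa9 had a domain of 8056 bp without DLX3. The Hoxb cluster held 6 domains between chr11:96281244-96355537, 37576 bp of domain with 1 DLX3 peak, in the Hoxb4 domain. Forkhead genes counted 6 of 44, Sox genes 4 of 19, Krüppel-like and Sp genes 8 of 26, and nuclear receptors 7 of 45. Foxc1, Sox4, Sox9, Klf4 and Rxra are counted in the keratinocyte list as well. Zinc finger genes named Zfp or Zscan counted 13 of 413, or 3.15%, against 3.89% of all protein-coding genes. Among genes with a marked start their share was 3.81%, against 6.63%. The 13 are not all transcription factors, since the name also brings in the RNA-binding decay factors Zfp36, Zfp36l1 and Zfp36l2. These are counted among the immediate-early genes below as well.

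Immediate-early genes, which switch on within minutes of a stimulus, made up 22 genes of broad domains, 21 of them with DLX3. Of 9 AP-1 subunit genes, 6 lay in broad domains, and all 6 domains held at least 2 DLX3 peaks. So did 13 of 16 other immediate-early domains, 5 of 6 desmosome domains and 248 of all 746 domains with a coding start. Fosl2 had 12380 bp and 2 DLX3 peaks, Junb 7578 bp and 5, Atf3 6844 bp and 4, Jun 6786 bp and 3, Fos 6604 bp and 2, and Fosb 5129 bp and 2. Among 29 other immediate-early genes, 16 lay in broad domains, 15 of them with DLX3. The widest of these were Egr3 (9512 bp, 2 DLX3 peaks), Zfp36l1 (8275 bp, 5), an RNA-binding decay factor, and Egr2 (7377 bp), which was the gene without DLX3. DLX3 peak centres in the AP-1 domains stood at 3.97 per 10 kb and those in the other immediate-early domains at 3.94 per 10 kb, against 2.10 per 10 kb over all domains with a coding start. Rates of that size also stood in other lists, with 4.16 for suprabasal keratinocyte markers, 3.77 for desmosome genes, 3.51 for cornified envelope genes and 3.38 for actin and its regulators. Of the 24 genes of the heat-shock and chaperone list 3 lay in broad domains: Hsp90ab1, Hspa5 and Hspb8, each with 2 DLX3 peaks. Hspa2, a heat-shock gene outside the list, had a domain of 4997 bp without DLX3. Without the domains of these 3 lists 75.2% of broad domains held a DLX3 peak and the rate was 2.06 centres per 10 kb, against 75.8% and 2.12 with them.

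Signalling genes in broad domains included ligands, receptors and feedback regulators. In the Notch pathway 9 of 29 genes lay in broad domains and 8 shared them with DLX3. The receptor Notch1 had 8450 bp and 4 DLX3 peaks, the ligand Jag1 7970 bp and 2, the feedback inhibitor Nrarp 8431 bp and 1, and the target Heyl 7356 bp and 1, while the ligand Dll1 had a domain without DLX3. Of the 48 genes of the Wnt list 17 lay in broad domains, 12 with DLX3. The list did not hold the whole pathway: the ligand gene Wnt6 (4506 bp, no DLX3 peak) was not on it. The receptors Fzd7 (9602 bp, 1 DLX3 peak) and Fzd10 (9108 bp, none), the ligand Wnt5a (9198 bp, 2) and the feedback inhibitor Axin2 (8723 bp, 1) had the widest domains. Of the BMP and TGF-beta pathway 14 of 42 genes lay in broad domains, 12 with DLX3, with the inhibitory Smad7 (8821 bp, 1 DLX3 peak) and Smad6 (7359 bp, 3) and the ligand Bmp7 (8602 bp, 1) among the widest. In the EGF receptor and MAPK list 13 of 40 genes lay in broad domains, and all 13 shared the domain with DLX3. They included the receptors Erbb2 (7948 bp) and Erbb3 (5481 bp), the receptor inhibitor Lrig1 (8653 bp), the kinase Map3k1 (8707 bp) and 5 dual-specificity phosphatases, of which Dusp6 had the widest domain at 7528 bp. Of the NF-kB list Nfkbia alone, the gene of the inhibitor IκBα, lay in a domain (1 of 26), with 5012 bp and 4 DLX3 peaks. Cytokine and JAK-STAT genes counted 5 of 49, among them Socs3 (4814 bp, 1 DLX3 peak), the feedback inhibitor of STAT3 signalling.

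Axon guidance and patterning families were listed after the genes of the domains had been seen, and no difference between them was tested. Ephrins and their Eph receptors counted 9 of 22 genes in broad domains, 7 with DLX3, led by Efnb2 (7282 bp, 1 DLX3 peak), Efnb1 (6958 bp, 1) and Efna1 (6522 bp, 4). Semaphorins, plexins and neuropilins also counted 9, of 31, and 3 of these had DLX3: Plxnb2, Sema3f and Sema6a. In the hedgehog pathway 6 of 16 genes lay in broad domains. The receptor gene Ptch1, which is also a target of the pathway, had a domain of 16710 bp with 3 DLX3 peaks, while that of the ligand Shh had 11440 bp and none. Solitary protocadherin and Fat cadherin genes had the start in a broad domain in 5 of 18 cases, none of these domains with DLX3, Pcdh7 (10846 bp) and Pcdh19 (8314 bp) being the widest. Broad domains inside the spans of Pcdh1 (6994 bp) and Fat1 (6066 bp), away from the listed starts, held 3 DLX3 peaks each. A list of epidermal proteases and members of protease inhibitor families, not all of them membrane-bound, had 7 of 18. Serpinb5 and Spint1 shared the domain with DLX3, while the domains of Furin, Klk8, Prss8, Serpinb8 and St14 held none.

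Structural genes were counted by adhesion, cornification and keratin lists. Desmosome genes counted 6 of 17, all 6 with DLX3: Perp (10484 bp, 4 DLX3 peaks), Dsp (9780 bp, 5), Pkp1 (7478 bp, 2), Jup (6603 bp, 3), Pkp3 (5970 bp, 2) and Dsc3 (4833 bp, 1). With starts of the promoter table alone the count was 2 of 17. Tight and adherens junction genes counted 11 of 39, 9 with DLX3, the widest at Gja1 (10481 bp, 3 DLX3 peaks), the connexin 43 gene, and at Nectin4 (9624 bp, 2). Cdh1, the E-cadherin gene, had 6109 bp and 1 DLX3 peak. Actin and its regulators counted 13 of 44, 12 with DLX3. Of 80 genes of the cornified envelope and the epidermal differentiation complex, 28 had a start in an H3K4me3 peak and 4 in a broad domain. These were Ppl (7654 bp, 1 DLX3 peak), S100a16 (6208 bp, 4), Tgm1 (6128 bp, none) and Sbsn (5637 bp, 4). Lor, the loricrin gene, had a peak of 3543 bp with 1 DLX3 peak and so fell below the width. Epidermal keratins counted 5 of 27, namely Krt17, Krt79, Krt14, Krt80 and Krt5, each with at least 1 DLX3 peak. None of 21 hair and root sheath keratin genes lay in a broad domain, of which 6 had a start in an H3K4me3 peak. Integrins and hemidesmosome genes counted 2 of 28, Plec and Lamc1, and barrier lipid genes 6 of 46.

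Of 22 hair follicle markers, 14 lay in broad domains, 8 of these with DLX3. Members without DLX3 were Shh, Tbx1, Sox9, Lef1, Gli2 and Lgr6. Gata3, Lhx2, Msx2 and Sox9 are in the keratinocyte factor list as well. The part of follicle cells in these marks was not tested, since 1 H3K4me3 profile of pooled cells cannot assign a peak to a cell. Of 18 fibroblast markers only Pdgfra lay in a broad domain, of 5414 bp with a score of 169.74 and no DLX3 peak. No melanocyte, immune, endothelial or neuronal marker of the lists did, nor any of 1106 olfactory receptor genes.

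Genes of general cell maintenance were counted in 4 lists. Cytosolic ribosomal protein genes counted 6 of 85 (7.06%) and ubiquitin and proteasome genes 5 of 69 (7.25%), above the 3.89% of all protein-coding genes. Translation factors counted 2 of 54 (3.70%) and respiratory chain genes 2 of 98 (2.04%). Among genes with a marked start the shares were 7.50%, 7.58%, 3.92% and 2.22% in this order, against 6.63%. In each of these lists 3 to 8 genes had no start in any H3K4me3 peak. RNA processing genes counted 11 of 56, 10 with DLX3. Chromatin enzymes counted 15 of 79, 12 with DLX3, and included the demethylase Kdm6b (13729 bp, 4 DLX3 peaks) and the H3K4 methyltransferase Setd1b (11345 bp, 4). Canonical histone genes counted 10 of 67, but these 10 genes sat in 4 domains. Of p53 targets and growth arrest genes 9 of 35 lay in broad domains, including Cdkn1a (5091 bp, 2 DLX3 peaks), the p21 gene. Cell cycle genes counted 7 of 47, among them the cyclins Ccnd1, Ccnd2 and Ccnd3.

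**Figure D1:**
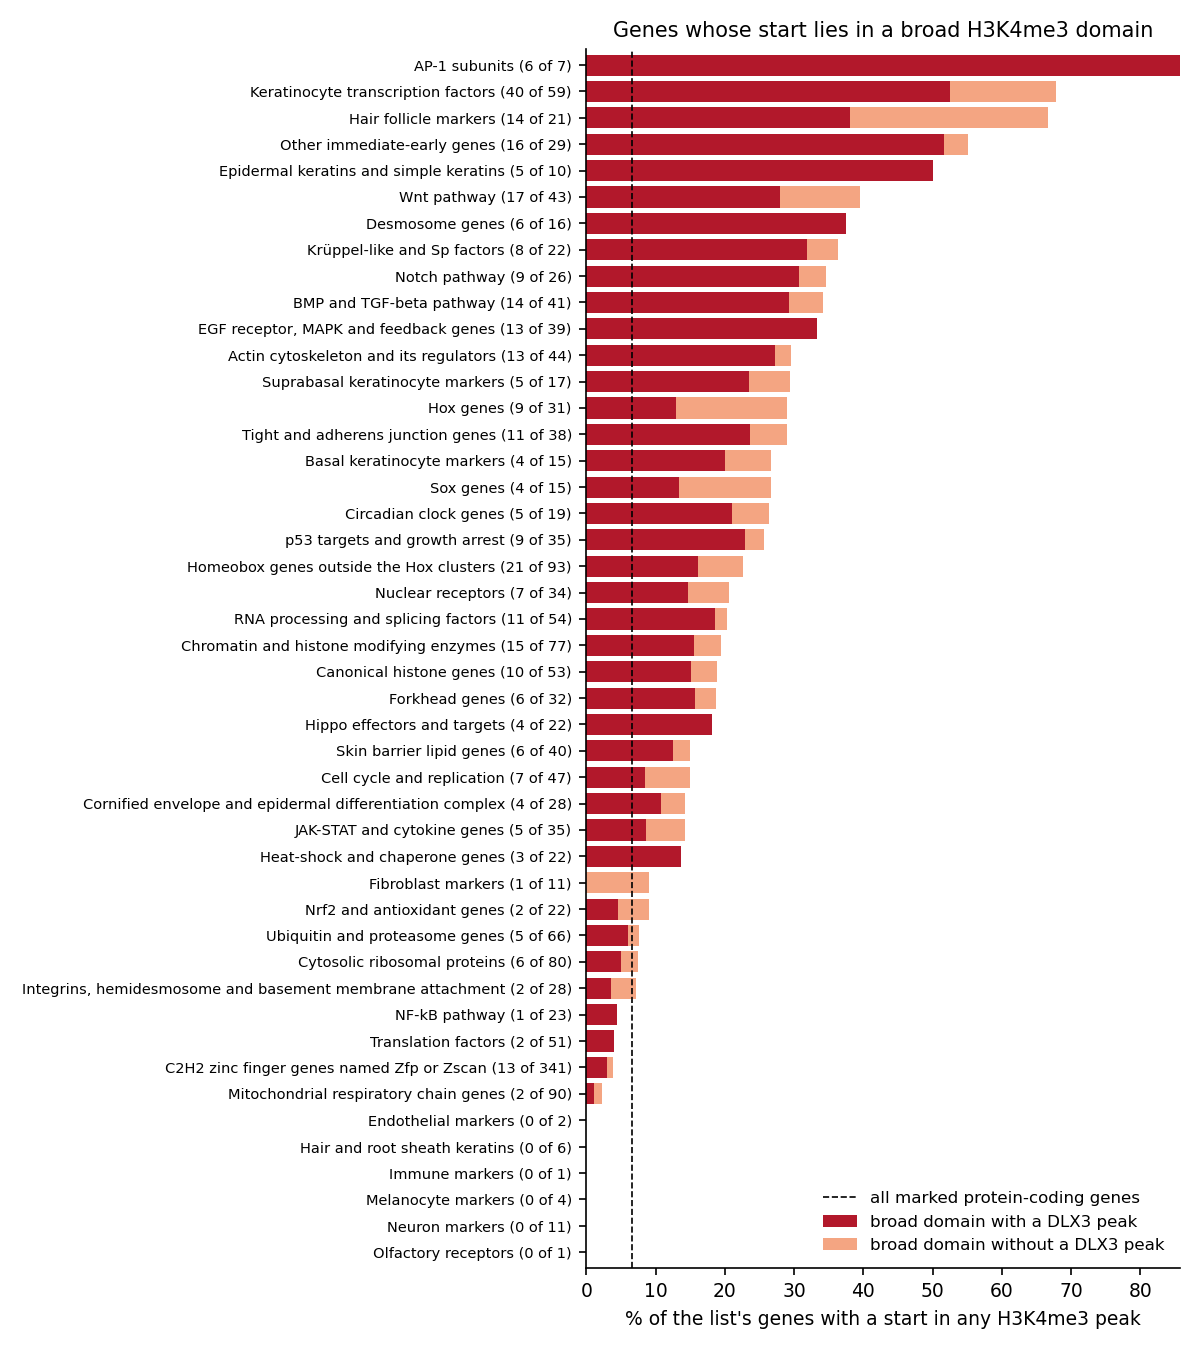
Share of each list's genes with a start in any H3K4me3 peak (x axis, percent) whose start lay in a broad domain, split by whether the domain held a DLX3 peak; numbers in brackets are genes in broad domains of genes with a marked start, and the dashed line is the 6.63% of all marked protein-coding genes. AP-1 subunits (6 of 7), keratinocyte transcription factors (40 of 59) and hair follicle markers (14 of 21) stand at the top, and respiratory chain genes (2 of 90) lie left of the line.

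DLX3 peaks reached 625 of the 824 domains (75.8%, 95% Wilson interval 72.8 to 78.6) and 6191 of the 15911 narrower peaks (38.9%, 38.2 to 39.7), against 40.7% of all H3K4me3 peaks. Of the domains 347 held 1 DLX3 peak, 183 held 2, 59 held 3, 28 held 4, 7 held 5 and 1 held 6, and 199 held none. Domains with 2 or more numbered 278 (33.7%), against 376 narrower peaks (2.36%) and 3.91% of all H3K4me3 peaks. A wide interval meets another interval more readily than a short one. Per length, DLX3 peak centres stood at 2.12 per 10 kb in broad domains (exact Poisson interval 1.99 to 2.25) and at 1.90 per 10 kb in narrower peaks (1.85 to 1.95). With a fixed window, 536 of the 1055 coding starts in broad domains had a DLX3 centre within 500 bp (50.8%, 47.8 to 53.8), as did 39.4% of those in narrower peaks (38.6 to 40.2) and 40.2% of coding starts in all H3K4me3 peaks. The share with a DLX3 centre within 250 bp was 37.8% in broad domains and 34.0% in narrower peaks.

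The comparison with all narrower peaks mixes several widths. By width, the share of coding starts with a DLX3 centre within 500 bp was 6.64% in peaks under 1000 bp, 25.7% at 1000 to 2000 bp, 45.2% at 2000 to 3000 bp and 49.4% (47.6 to 51.1) at 3000 to 4500 bp. In broad domains it was 50.6% (46.9 to 54.2) at 4500 to 6000 bp, 51.2% at 6000 to 8000 bp and 51.6% at 8000 bp or more. Starts in broad domains and starts in peaks of 3000 to 4500 bp thus had overlapping intervals. The share of peaks with any DLX3 peak went on upward over the same bins, with 59.4% at 3000 to 4500 bp, 71.7% at 4500 to 6000 bp, 83.7% at 6000 to 8000 bp and 86.7% at 8000 bp or more.

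**Figure D2:**
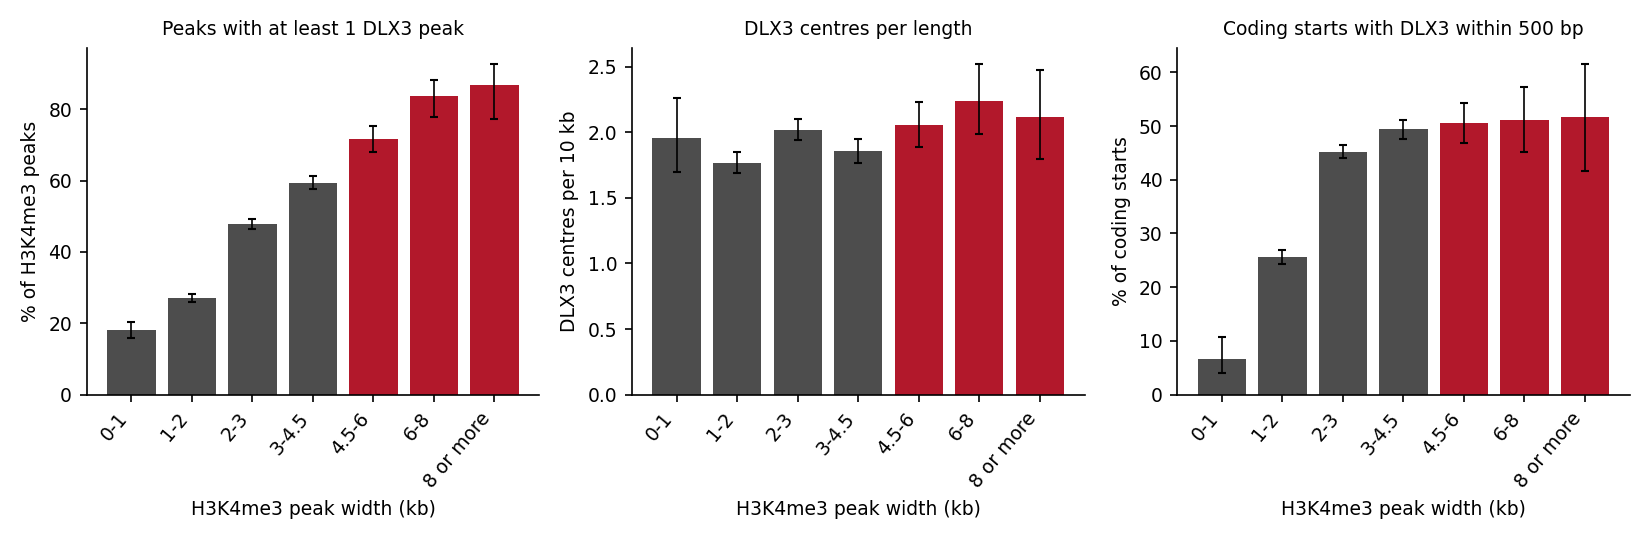
H3K4me3 peaks by width (x axis, kb), with broad domains in red and narrower peaks in grey: the share that held a DLX3 peak, DLX3 centres per 10 kb, and the share of coding starts with a DLX3 centre within 500 bp; bars show the value and lines its 95% interval. The first share climbs to 86.7% at 8 kb or more, the rate per length stays between 1.77 and 2.24, and the share of starts levels off near 50% from 3 kb upward.

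Away from the start, DLX3 centres were denser in broad domains than in narrower peaks. Within 250 bp of the nearest coding start inside the same H3K4me3 peak, DLX3 centres stood at 7.42 per 10 kb in broad domains (6.67 to 8.23), 7.49 in peaks of 3000 to 4500 bp (7.05 to 7.95) and 6.44 in all narrower peaks (6.24 to 6.65). At 1000 to 2000 bp from the start the rates were 1.54 (1.31 to 1.79), 0.545 (0.459 to 0.642) and 0.371 (0.323 to 0.424) per 10 kb. At 2000 bp or more they were 1.39 (1.21 to 1.58), 0.556 (0.421 to 0.720) and 0.550 (0.422 to 0.706). Centres 1000 to 2000 bp from the start made up 18.1% and those farther off 24.1% of the DLX3 centres in domains with a start, against 4.33% and 1.24% in narrower peaks. Distance to the edge of the H3K4me3 peak was not matched in these rates. Outside the marked chromatin the rate was lower. In the 2000 bp on either side of a peak it was 0.260 per 10 kb for broad domains (0.207 to 0.324). It was 0.160 for peaks of 3000 to 4500 bp (0.137 to 0.187) and 0.110 for all narrower peaks (0.102 to 0.119).

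**Figure D3:**
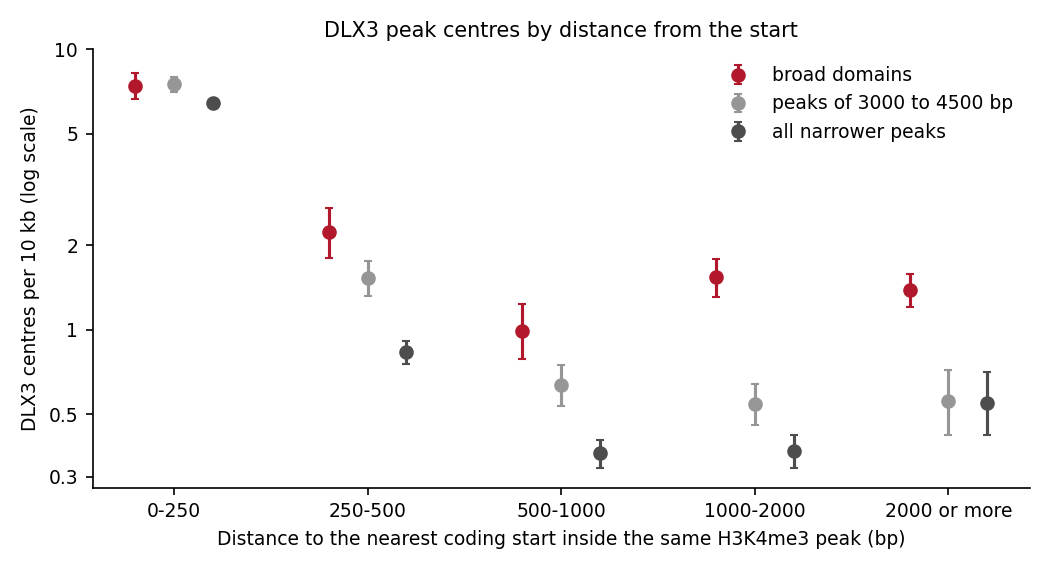
DLX3 peak centres per 10 kb (y axis, log scale) by distance to the nearest coding start inside the same H3K4me3 peak (x axis, bp), for broad domains, peaks of 3000 to 4500 bp and all narrower peaks; points are rates and lines their 95% Poisson intervals. Near the start broad domains (7.42) and peaks of 3000 to 4500 bp (7.49) lie together, and from 1000 bp on broad domains (1.54 and 1.39) lie above both others.

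Along the domain, 531 of 1025 DLX3 centres (51.8%, 48.7 to 54.9) fell in the middle 50% of its length, against 76.6% of those in narrower peaks. From the middle to the edge, successive steps of equal length held 22.1%, 29.7%, 32.7% and 15.5% of the centres, so the outermost step held fewest. The domains were not centred on their starts. In 497 domains with a single coding gene of known strand, the mark ran 1357 bp upstream of the first start and 4044 bp downstream of it at the median, against 757.5 bp and 1384 bp in 8260 narrower peaks. The downstream arm was longer in 92.2% of these domains and in 88.8% of the narrower peaks. Of the 615 DLX3 centres in them 43.4% lay within 500 bp of the first start, 42.1% farther downstream and 14.5% farther upstream. Per length the rates beyond 500 bp were 1.38 per 10 kb downstream (1.21 to 1.55) and 1.61 per 10 kb upstream (1.29 to 1.98), with overlapping intervals.

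**Figure D4:**
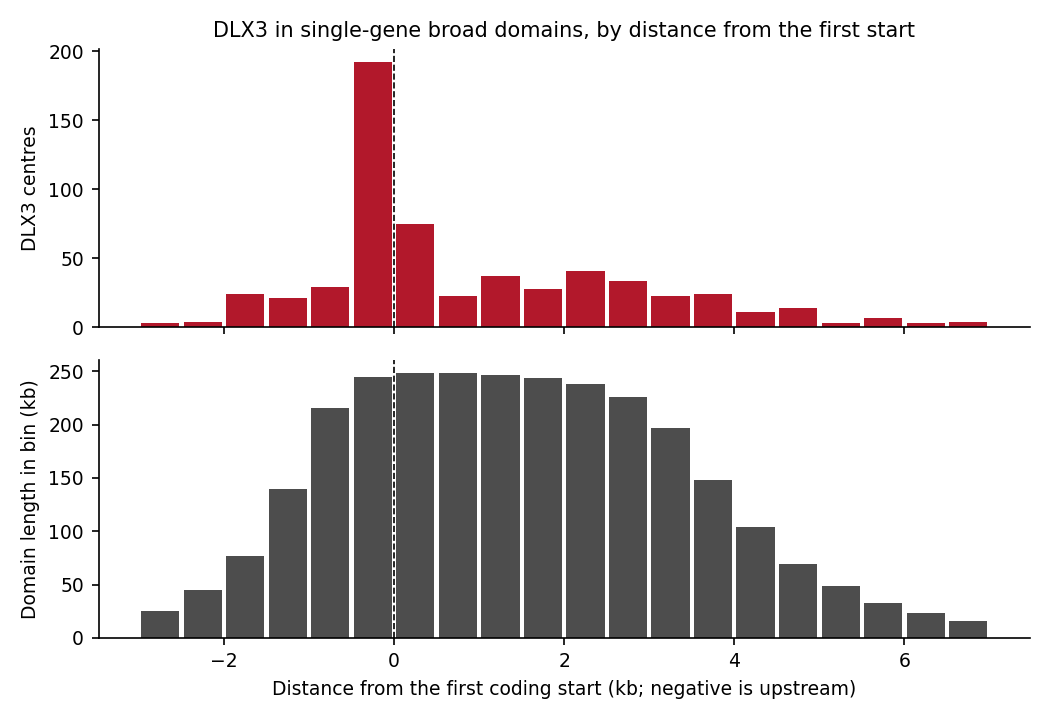
DLX3 peak centres (upper panel) and domain length (lower panel, kb) in bins of 500 bp around the first coding start of the 497 single-gene domains with known strand (x axis, kb, negative upstream). The bin just upstream of the start holds 192 centres, the bin just downstream 75, and the bins from 1 to 4 kb downstream between 23 and 41 each.

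Individual domains showed these layouts. In the Dsp domain, over the desmoplakin gene, 1 DLX3 centre lay 47 bp upstream of the start and the others 1560, 2597, 4460 and 5576 bp downstream, with scores of 147.11, 164.31, 112.08, 86.47 and 72.57. In the Perp domain centres lay 60, 1512, 3255 and 5301 bp from the nearest end of the gene span, with scores of 410.54, 101.19, 145.4 and 336.46. In the Notch1 domain the centre at the start (32 bp downstream) had the lowest score, 65.13, and those 2090, 2946 and 6672 bp downstream had 192.86, 214.17 and 121.37. In the Tfap2a domain centres lay 3400 and 127 bp upstream of the nearest start and 2129, 2785 and 10825 bp downstream, with scores of 66.78 to 134.6. Zbtb7b, a BTB zinc finger gene with a domain of 13846 bp, had 5 DLX3 peaks on both sides of its starts. In the Ovol1 domain a peak of score 386.36 lay 368 bp from the nearest end of the gene span and another of 350.66 lay 6150 bp from it. Irx2 had a single DLX3 peak (score 225.52) 173 bp downstream of its start, in the fourth widest domain.

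Lgals7, the galectin-7 gene of stratified epithelia, had 5 DLX3 peaks in a domain of 5058 bp, narrower than the other domains with that number. A domain at Nek8, Rpl23a and Tlcd1 (8446 bp) and those of Junb, Zfp36l1, Dsp, Tfap2a and Zbtb7b held 5 as well. The domain with 6 was the 8696 bp over Malat1, a nuclear long non-coding RNA. Of these 6 the highest-scoring, at 342.02, was centred outside the domain. The median width was 5055 bp in domains with no DLX3 peak, 5240 bp with 1, 5507 bp with 2, 6603 bp with 3 and 6856 bp with 4.

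**Figure D5:**
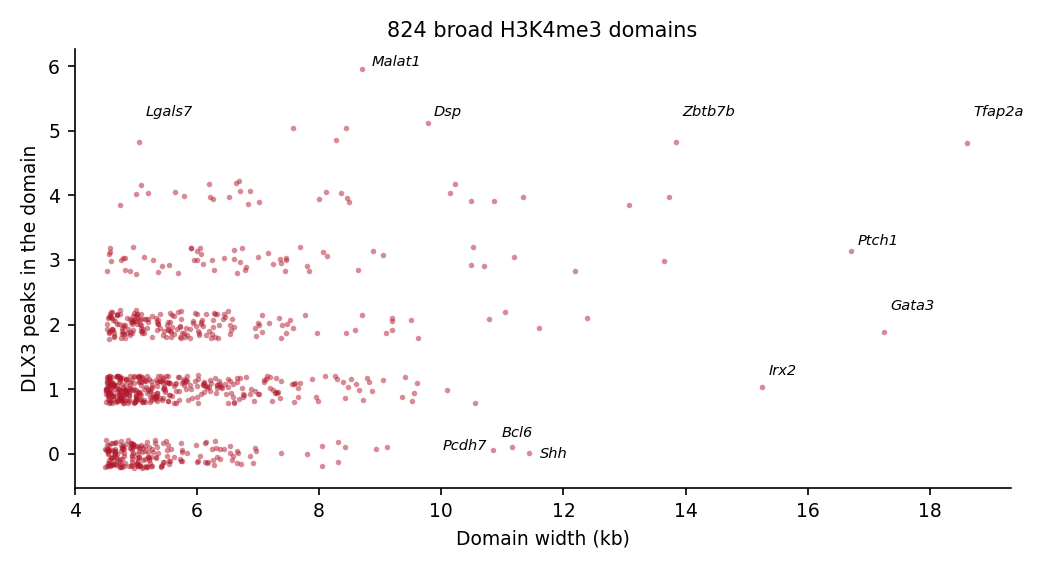
Number of DLX3 peaks (y axis, points shifted up or down at random within each number so that they can be told apart) against width (x axis, kb) for the 824 domains, 1 point per domain. Wider domains held more DLX3 peaks, but Shh, Bcl6 and Pcdh7 held none at over 10 kb, and Lgals7 held 5 at 5058 bp.

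DLX3 peaks inside broad domains had a median score of 103.9, against 92.56 in narrower H3K4me3 peaks and 76.83 outside H3K4me3, and median widths of 752, 678 and 589 bp. Of the 10 highest-scoring DLX3 peaks of the list, 1 lay in a broad domain, that of Egr1, with a score of 1441.38. That peak was 5044 bp wide and thus 75.1% of the width of its domain. The DLX3 peak at Fos was 4742 bp wide, 71.8% of its domain, with its centre 1323 bp downstream of the start. Other wide DLX3 peaks lay at Hsp90ab1 (3955 bp), Gse1 (3713 bp), Jun (3382 bp), Nfib (3143 bp), Btg2 (3069 bp), Hspa5 (2664 bp), Ddit4 (2609 bp) and Nfkbia (2559 bp). Those at Hsp90ab1 and Hspa5 were centred outside the domain. In all, 19 of the 1043 DLX3 peaks in broad domains were wider than 2000 bp.

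The 199 domains without DLX3 were a little narrower, with a median width of 5055 bp, against 5452 bp in the 625 domains with DLX3, and their median H3K4me3 score was 2091, against the ceiling of 3100. A coding start lay in 90.9% of the domains with DLX3 and in 89.4% of those without. The nearest DLX3 peak was 20451 bp away at the median (interquartile range 6806 to 55418), and lay within 10 kb of 33.2% of them. The 10 widest were those of Shh, Bcl6, Pcdh7, Fzd10, Nrp2, a domain in the Hoxb3 span, Pcdh19, Zfp608, Hoxa9 and Tbx1, from 11440 down to 8050 bp. Shh encodes a hedgehog ligand, Fzd10 a Wnt receptor, Nrp2 a semaphorin co-receptor, Pcdh7 and Pcdh19 protocadherins of cell contact, Hoxa9 and Tbx1 patterning factors, and Bcl6 and Zfp608 zinc finger proteins. Every broad-domain gene of the desmosome list (6), the AP-1 list (6), the epidermal keratin list (5) and the EGF receptor and MAPK list (13) shared its domain with DLX3. The same held for the Hippo pathway list (4), the heat-shock list (3), the translation factor list (2) and the NF-kB list (1). Background for the comparison is the 77.1% of all broad-domain genes with DLX3, and with lists this small no difference between lists was tested.

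No protein-coding start lay in 78 domains, of which 59 sat inside the span of a coding gene, 14 held non-coding genes only and 5 held no gene. DLX3 peaks reached 73.1% of them (62.3 to 81.7), against 76.1% of domains with a coding start (73.0 to 79.1). The widest was a domain of 13649 bp in the span of Aopep, an aminopeptidase gene (chr13:63238904-63252552, 3 DLX3 peaks), with a second of 10694 bp and 3 DLX3 peaks in the same span. Neat1, the RNA scaffold of nuclear paraspeckles, had 10232 bp (chr19:5839730-5849961) and 4 DLX3 peaks, the strongest with a score of 665.31. Another of these 4, of score 63.25, was centred outside the domain. A domain of 9187 bp in the Plec span held 2 DLX3 peaks. Malat1 (chr19:5796262-5804957) followed with its 6, whose scores ran from 61.2 to 342.02, the last being that of the peak centred outside the domain. Tincr, named for its role in human terminal differentiation of keratinocytes, had 5203 bp (chr17:56550233-56555435) and 2 DLX3 peaks, with scores of 201.81 and 203.21.

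The microRNA domains differed in DLX3. The Mir203 domain (4578 bp, chr12:112129622-112134199) held 3 DLX3 peaks, of which 1, of score 181.22, was centred outside the domain. The strongest, of score 257.9 at chr12:112129924-112131007, covered the miR-203-3p sequence shown above. The Mir205 domain (5003 bp) held 1 DLX3 peak of score 84.59, which did not reach the miR-205-5p sequence. The Mirlet7i domain (5275 bp) held 1 of score 91.41. The domain of Mir125b-1 in its host Mir100hg (5262 bp) held none.

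Broad domains were seldom close neighbours. Only 3 pairs lay within 1 kb of each other, 13 within 5 kb, 19 within 10 kb and 68 within 50 kb. The closest pairs were Hes7 and Aloxe3 (23 bp apart, 1 and 0 DLX3 peaks), 2 domains of Nfib (34 bp) and the 2 of Irx5. Chromosome 11, which holds the Hoxb cluster and the type I keratins, carried 102 domains, 7.26% of its H3K4me3 peaks. Chromosome X carried 6, 1.24% of its peaks, and 1 of these, at Efnb1, held DLX3.

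Promoters in broad domains were rich in G and C. Over 840 windows of 250 bases before starts in broad domains the median G and C content was 64.8%, against 61.6% over 11523 windows in narrower peaks and 47.2% over 8900 windows with no H3K4me3. CpG dinucleotides stood at 0.77, 0.75 and 0.19 of the number that base content would give. The homeodomain core TAATT was present in 11.4% of windows in broad domains (9.45 to 13.8), 13.3% in narrower peaks (12.7 to 13.9), 34.7% with no H3K4me3 and 22.2% over all 21263 windows. Within broad domains it was present in 10.4% of windows with a DLX3 centre within 500 bp (7.88 to 13.6) and in 12.6% of the others (9.69 to 16.2), so the intervals overlapped. The median G and C content of these 2 groups was 66.0% and 62.4%. A DLX3 centre could lie outside the window or past the start, and the sequence under DLX3 peaks was not read. The GC box GGGCGG, on either strand, was present in 70.7% of windows in broad domains and 63.6% in narrower peaks. The ETS core CCGGAA was present in 16.2% (13.9 to 18.8) and 23.1% (22.3 to 23.9), against 15.0% over all windows. Within broad domains it was present in 19.6% of windows with a DLX3 centre within 500 bp (16.2 to 23.6). In the other windows the share was 12.3% (9.46 to 15.9), and no other motif counted had separate intervals in this split.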

How the data were processed

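The authors deposited 1 peak list per antibody on mm10, with chromosome, start, end, name and a score per peak. HOMER, MACS 1.4.2 and Bowtie 1.1.2 were used on the reads, per the submitters' processing notes, with unstated settings. The deposited scores depend on depth and peak width, so they were compared within a list only. Genes came from the RefSeq table of GRCm38.p6, and starts from the RefSeq promoter table (250 bases before each start), which placed 661 of the 852 genes. For the others the table gives no strand and both span ends counted as starts. A DLX3 peak counted as in a domain when at least 1 bp was shared. By this rule 1043 DLX3 peaks lay in broad domains, while 1025 DLX3 centres did. Shares carry 95% Wilson intervals and rates exact Poisson intervals (Python 3.11.15, SciPy 1.17.1, pandas 2.3.3). Interval code was tested on simulated data. The domains, 46 gene lists and 7 lists added later were chosen with earlier results of these data known. Genes were named by a rule: the 20 widest domains, the 10 with most DLX3 peaks, the 10 widest without DLX3, up to 4 widest per list, the neighbours of the threshold, the 5 widest without a coding start, and Dlx3, Trp63, Krt1, Krt5, Krt10, Krt14, Lor, Fos, Jun and Klf4. Other genes were named after their values were seen. Alternatives covered width, merging, DLX3 score, overlap and windows.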

Additional observations from a re-analysis of the deposited data

How the results depend on the processing

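With a width of 4000, 5000 or 6000 bp there were 1309, 532 or 265 domains and 1352, 545 or 271 coding genes, and the share with a DLX3 peak was 70.5%, 79.1% or 84.5%. With DLX3 peaks at or above the median score that share was 57.8%, the rate 1.36 centres per 10 kb and the share of starts with DLX3 within 500 bp 35.4%. With the top 20% of DLX3 peaks they were 33.6%, 0.692 and 19.3%, against 10.2%, 0.476 and 9.84% in narrower peaks. Windows of 250 and 1000 bp gave 37.8% and 59.1% of starts. With starts of the promoter table only, a choice made after seeing the data, 71.4% of domains held a coding start, against 58.1% of narrower peaks. At 1000 bp or more from the start the rate was 1.45 per 10 kb in broad domains and 0.40 in narrower peaks; with DLX3 peaks at or above the median score it was 0.857 and 0.193, and with the top 20% of DLX3 peaks 0.419 and 0.0860, settings also added after seeing the data. In each of these settings the value in broad domains stayed above that in narrower peaks. Merging peaks at most 500 bp apart, autosomes only, other overlap rules and leaving out immediate-early and heat-shock domains moved no summary value beyond its interval or by over 1.5 times. Widths of 4000, 5000 and 6000 bp moved 13, 10 and 32 of 46 gene-list counts by over 1.5 times, and starts of the promoter table only moved 11, since genes missing from it then have no start: keratinocyte factors 23, hair follicle markers 9, BMP and TGF-beta genes 8, Zfp or Zscan genes 8, junction genes 6, Hox genes 3, epidermal keratins 3, desmosome genes 2, translation factors 1, respiratory chain genes 1 and integrins 0. No paired analysis was possible because each antibody has 1 library. Depth is unknown, so a domain without a DLX3 peak is one in which none was called.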

Other observations

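Of the 517 genes of broad domains in no list, some are given here as examples. They were picked after their values were seen, most of them for a known role in skin, and stand for no tested group. Irf2bp2, a transcriptional corepressor gene, had 13082 bp and 4 DLX3 peaks, Tnrc18 12195 bp and 3, Trim29 10871 bp and 4, and Bcl11a 10775 bp and 2. Fgfr2, whose epithelial form receives signals from the dermis, had 9094 bp and 2 DLX3 peaks, Lmo4 9044 bp and 3, and Hr, the hairless gene, 8781 bp and 1. Surface and barrier genes included the planar polarity gene Vangl2 (7691 bp, 1 DLX3 peak), the syndecans Sdc4 (6714 bp, 4) and Sdc1 (6378 bp, 1), and the water and glycerol channel Aqp3 (6033 bp, 2). Ripk4, a kinase gene needed for keratinocyte differentiation, had 6323 bp and no DLX3 peak. The Groucho corepressors Tle3 (8491 bp, 4 DLX3 peaks) and Tle1 (6517 bp, 1) were both in broad domains.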
